A study of Mus musculus with 24 samples.

Results

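Haematopoietic barcodes that made up a visible part of blood B cells but almost none of the other blood cells were followed into tissue macrophages of 3 mice. A barcode was taken as a member when it held at least 0.1% of the reads of B cells and under 0.01% of the reads of T cells, of monocytes and of neutrophils of the same mouse. This gave 92 barcodes, 29 in mouse 1, 27 in mouse 2 and 36 in mouse 3, out of 400 that reached 0.1% in B cells and 327974 distinct sequences in the series. No sequence was a member in more than 1 mouse. The members were thus chosen by their shares in B cells, T cells, monocytes and neutrophils, which are given below as a description, whereas the macrophages played no part in the choice.

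The data were read counts of lentiviral DNA barcodes in genomic DNA of 24 samples, 8 sorted populations from each of 3 recipient mice. Stem cells from the marrow of C57BL/6 mice had been cultured, infected with the barcoding lentivirus pBC008 and sorted as GFP+ Sca1+ cKit+ cells. Male CD45.2 recipients, 5 weeks old, were irradiated with 9 Gy and received these cells together with CD45.2+ cKit+ Sca1- rescue cells. After 2 months B cells, T cells, monocytes and neutrophils were taken from blood, Ccr2hi and Ccr2lo macrophages from the heart, and macrophages labelled M1 and M2 from the kidney. All 24 samples share the same strain, transplant and irradiation, so there is no untreated group, and each population has 1 sample per mouse. The markers of the sorts and the numbers of sorted cells are not given in the sources used here, and DNA barcodes carry no cell type markers against which the labels could be checked. Samples held 6808221 to 15745444 reads, so that 0.01% stood for 681 to 1575 reads. No molecular identifiers were used in the PCR, so intervals below cover counting error only. Shares refer to amplified barcode copies and not to cells, and cells that carry no barcode are not seen.

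As background, a founder stem cell passes its integrated barcode to all of its descendants, so that a sequence found in several populations marks common descent. A founder can carry more than 1 integration, and barcodes are therefore not a count of founders. B cells arise in the bone marrow and can persist for long in the periphery, T cells mature in the thymus, and neutrophils and most blood monocytes are short-lived and are replaced continuously from marrow progenitors. Macrophages of heart and kidney live in the tissue, and Ccr2, the receptor for the monocyte chemoattractant Ccl2, is used to separate cardiac macrophages by their link to circulating monocytes.

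The sequences are synthetic and have no position in a genome. They are named here by a letter for the mouse (a for mouse 1, b for mouse 2, c for mouse 3) and their rank by share in B cells among the members of that mouse. The 16 sequences below are those on which the results turn: leading members in B cells, those with the highest levels in macrophages, the largest one per mouse under 0.01% in all macrophages, and 1 that was also abundant in another mouse. They are written 5′ to 3′ as deposited, and a capital marks a base off the pattern of most barcodes, in which strong (G or C) and weak (A or T) bases alternate.
a1: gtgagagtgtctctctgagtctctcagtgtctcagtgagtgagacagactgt
a2: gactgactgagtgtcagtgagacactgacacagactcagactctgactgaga
a3: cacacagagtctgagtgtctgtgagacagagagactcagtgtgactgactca
a25: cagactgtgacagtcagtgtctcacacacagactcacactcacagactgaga
a26: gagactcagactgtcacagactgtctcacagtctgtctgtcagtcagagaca
b1: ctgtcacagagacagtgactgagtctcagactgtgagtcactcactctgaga
b2: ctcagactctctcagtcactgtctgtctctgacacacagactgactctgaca
b3: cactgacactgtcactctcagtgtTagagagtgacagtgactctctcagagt
b14: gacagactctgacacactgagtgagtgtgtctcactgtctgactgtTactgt
b23: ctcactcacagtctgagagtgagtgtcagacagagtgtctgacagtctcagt
c1: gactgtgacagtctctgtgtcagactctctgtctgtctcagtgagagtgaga
c2: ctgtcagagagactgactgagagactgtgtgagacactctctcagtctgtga
c9: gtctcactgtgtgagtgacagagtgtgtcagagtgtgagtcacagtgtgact
c19: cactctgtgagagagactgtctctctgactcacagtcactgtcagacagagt
c28: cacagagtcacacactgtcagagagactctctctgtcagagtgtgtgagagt
c33: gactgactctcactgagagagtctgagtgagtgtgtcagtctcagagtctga

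The members were well separated as sequences. Of the 92, 84 followed this pattern in full and the other 8 departed from it at 1 base each, such as b3 and b14, against 367 on the pattern among the 400 barcodes at 0.1% or more in B cells. Between any pair of members of a mouse there were 16 to 36 mismatches over the 52 bases, with a median of 26. To the nearest barcode that exceeded a member 10-fold or more in the same B cells there were 14 to 25 mismatches, so no member lay within a few bases of a dominant sequence.

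In other blood the members were scarce rather than absent. None had 0 reads in T cells, monocytes and neutrophils together, and 21 of the 92 were under 0.001% in all 3 populations. At least 0.005% in one of these populations was reached by 44 members, and the highest of the 3 values was that of neutrophils for 21 of them, of monocytes for 18 and of T cells for 5. Together the members of a mouse held 0.0471%, 0.0467% and 0.0429% of T cell reads in mice 1, 2 and 3. They held 0.0446%, 0.0668% and 0.0860% of monocyte reads and 0.105%, 0.0844% and 0.0887% of neutrophil reads. As a measure of background, 75 members stayed under 0.01% in all 16 samples of the other mice, where their highest share ranged from 7.22e-05% to 0.00899% with a median of 0.000221%. Of these 75, the share in the same mouse exceeded that highest foreign share for 41 in T cells, 27 in monocytes and 40 in neutrophils, and 18 did so in none of the 3.

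Within B cells the members were small clones. They held 4.73% of B cell reads in mouse 1, 5.66% in mouse 2 and 8.30% in mouse 3, or 6.23% ± 1.85 (SD, n = 3 mice), while all barcodes at 0.1% or more held 86.1%, 91.6% and 89.5%. Their number was 30.7 ± 4.73 per mouse, which is 18.7%, 22.9% and 28.3% of the barcodes at 0.1% or more. The median share was 0.136%, 0.171% and 0.203%, and the largest was 0.431% for a1 (95% Wilson interval 0.427% to 0.435%), 0.507% for b1 (0.503% to 0.511%) and 0.427% for c1 (0.423% to 0.431%). These 3 stood only at ranks 55, 45 and 36 of their B cells, whose largest barcodes held 8.41%, 7.14% and 9.85%. Of the 92 members, 62 lay between 0.1% and 0.2%, and the largest member of a mouse exceeded the smallest 4.31-, 4.98- and 4.15-fold.

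Most members reached 0.01% in macrophages of the heart and in renal M2 macrophages, and few did in renal M1 macrophages. The limit used for B cells, 0.1%, was reached by 25 of 92 in Ccr2hi, 31 in Ccr2lo, 19 in M2 and 0 in M1 macrophages. No background over the 400 barcodes is given at that limit, so these counts describe the members only. At 0.01% or more, 80 of 92 were present in cardiac Ccr2hi macrophages, beside a background of 93.8% of the 400 barcodes at 0.1% or more in B cells, which include the members. In cardiac Ccr2lo macrophages 81 of 92 were present, against a background of 95.5%, and in renal M2 macrophages 81 of 92 against 95.2%. In renal M1 macrophages it was 8 of 92, against 43.5%. Averaged over mice the members present made up 87.1% ± 1.58 (Ccr2hi), 87.7% ± 3.48 (Ccr2lo), 87.3% ± 8.58 (M2) and 8.39% ± 4.07 (M1) (SD, n = 3 each). Each of the 3 M1 values, 10.3%, 3.70% and 11.1%, lay far below the lowest value of the other subsets, 77.8% in M2 macrophages of mouse 2.

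Members present in 1 of these 3 subsets were mostly present in all 3, as were B cell barcodes at large. Present in Ccr2hi, Ccr2lo and M2 macrophages together were 73 of 92 members (79.3%), beside a background of 91.2% of the 400, and of the 73, 7 were also present in M1 macrophages. At 0.01% or more in Ccr2lo or M2 macrophages were 86 of 92 members, beside a background of 389 of the 400 barcodes. The other 6 members, 2 in each mouse, were under 0.01% in all 4 macrophage populations. A further 3 were found in the heart alone with both cardiac subsets, all in mouse 2, and 1 in Ccr2lo macrophages alone. Renal M2 macrophages alone held 2, both in mouse 1. The remaining members were missing from a single one of the 3 subsets: 3 from Ccr2hi and 3 from Ccr2lo macrophages, and 1 was present in both cardiac subsets and in M1 but not in M2 macrophages.

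Levels in the heart were lower than in B cells but of the same order. The members held 1.51%, 2.64% and 4.29% of Ccr2hi reads in mice 1, 2 and 3, and 1.78%, 3.05% and 4.65% of Ccr2lo reads. The Ccr2lo sum was the higher in 3 of 3 mice, by 0.273, 0.404 and 0.362 percentage points, while the spread between mice was larger, with means of 2.81% ± 1.40 and 3.16% ± 1.44 (SD, n = 3 each). For a typical member the Ccr2hi share was 0.189, 0.240 and 0.331 times the B cell share (median per mouse), and the Ccr2lo share 0.261, 0.214 and 0.415 times. The largest 5 members in Ccr2lo macrophages made up 43.4%, 61.3% and 48.4% of the Ccr2lo reads that members held. A higher share than in B cells was seen for 9 of 92 members in Ccr2hi macrophages, where the background over the 400 barcodes was 21.5%, and for 13 of 92 in Ccr2lo macrophages, where it was 20.8%.

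Most single members were at like levels in both cardiac subsets, as were B cell barcodes at large. Of the 84 members at 0.01% or more in either subset, 68 were within 2-fold, beside a background of 329 of 386 barcodes. At least 2-fold higher in Ccr2lo were 10 (background 8.29%), and 6 were at least 2-fold lower (background 6.48%). The median Ccr2lo to Ccr2hi ratio was 1.26, 0.958 and 1.17 in the 3 mice. The most uneven was c29, with 0.0317% of Ccr2lo but 4.18e-05% of Ccr2hi reads, although renal M2 macrophages held 0.0510% of it.

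Renal M2 macrophages held the members at somewhat lower levels than the heart. Their sum was 1.45%, 1.91% and 2.53% of M2 reads, below both cardiac subsets in each mouse, with a mean of 1.96% ± 0.543 (SD, n = 3). Against Ccr2lo macrophages, 26 of 86 members were at least 2-fold lower in M2 (background 21.6%) and 12 at least 2-fold higher (background 11.1%), with median ratios of 0.728, 0.814 and 0.626. A share above that of B cells was seen for 7 of 92 members (background 17.0%). The highest M2 shares were 0.326% for b13 and 0.250% for c11.

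Renal M1 macrophages stood apart from M2 macrophages of the same kidneys. The members together held 0.0519%, 0.0625% and 0.120% of M1 reads, a mean of 0.0782% ± 0.0368 (SD, n = 3), and each M1 sum was below each M2 sum. Under 0.001% in M1 macrophages were 69 of 92 members, and no background is given at that limit. The median share per mouse was 8.59e-05%, 0.000101% and 0.000229%, near the level that the sequences showed in other mice. M1 shares were low for B cell barcodes at large too, though less so. The median M1 to B cell ratio was 0.0172 over all barcodes at 0.1% or more in B cells and 0.000614 over the members. Of 82 members at 0.01% or more in either renal subset, 78 were at least 2-fold lower in M1 macrophages, where the background was 78.6% of 383 barcodes. No member had a higher share in M1 macrophages than in B cells (background 13.5%). The M1 values are linked to the rule, which removed barcodes at 0.01% or more in monocytes or neutrophils. Of the 174 B cell barcodes present in M1 macrophages, 165 (94.8%) were at that level. So were most of the 400 barcodes at 0.1% or more in B cells, namely 123 under 0.01% in T cells and another 174 at or above it.

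The 8 members present in M1 macrophages were held there at trace levels. The highest was c9 with 0.0265% of M1 reads, followed by c35 (0.0191%) and c4 (0.0186%), then b14 with 0.0170% and a3 with 0.0138%. The lowest were a21 (0.0118%), a18 (0.0116%) and c23 (0.0116%). The monocyte share was 7.80e-05% for c9 and 1.75e-05% for a21, but 0.00476% for a3 and 0.00519% for c23.

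The leading B cell members of mouse 1 illustrate the spread of levels. Barcode a1 held 0.431% of B cell reads, 0.129% of Ccr2hi, 0.156% of Ccr2lo, 0.174% of M2 and 0.000275% of M1 macrophage reads. Barcode a2 was nearly equal to it in B cells, at 0.428%, but lower in every macrophage population, with 0.0465% of Ccr2hi, 0.0762% of Ccr2lo, 0.0169% of M2 and 0.000223% of M1 reads. Barcode a3 had 0.274% of B cell, 0.131% of Ccr2hi, 0.0769% of Ccr2lo and 0.0560% of M2 reads, and it is 1 of the 8 found in M1 macrophages. The next, a4 and a5, held 0.212% and 0.196% of B cell reads and 0.0552% and 0.0475% of Ccr2lo reads. The member of mouse 1 with the highest mean over the 4 macrophage populations was a26, a small one in B cells (0.102%) with 0.121% of Ccr2hi, 0.180% of Ccr2lo and 0.217% of M2 reads.

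In mouse 2 the 2 largest members had a cardiac profile. Barcode b1 held 0.507% of B cell, 0.536% of Ccr2hi and 0.709% of Ccr2lo reads but 0.101% of M2 reads. Barcode b2 had 0.465%, 0.588%, 0.563% and 0.0776% in the same populations. Barcode b3 was nearly as large in B cells (0.456%), yet lower in the heart, with 0.0576% of Ccr2hi and 0.0313% of Ccr2lo reads. The next, b4 and b5, had 0.386% and 0.245% of B cell reads but only 0.00608% and 0.0104% of Ccr2lo reads. Barcode b13 was weighted to renal M2 macrophages, with 0.172% of B cell, 0.125% of Ccr2hi, 0.114% of Ccr2lo and 0.326% of M2 reads, but 0.00912% of M1 reads. Barcode b14 was at like levels in the heart and in renal M2 macrophages, with 0.171% of B cell reads, 0.213% of Ccr2hi, 0.175% of Ccr2lo and 0.239% of M2 reads. Its M1 share was lower, at 0.0170%, though the highest of the members of that mouse.

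In mouse 3 the largest macrophage share belonged to a medium-sized B cell barcode. Barcode c19 held 0.195% of B cell reads but 0.987% of Ccr2hi and 0.991% of Ccr2lo reads, 5.05 and 5.07 times its B cell share and the highest cardiac shares of any member. It held 0.201% of M2 and 0.000798% of M1 reads, and 0.00693% of monocyte reads. The largest in B cells, c1, had 0.427% there and only 0.0510% of Ccr2hi, 0.0277% of Ccr2lo and 0.0626% of M2 reads. Barcode c2, with 0.410% of B cell reads, had 0.235%, 0.342% and 0.151% in these subsets. Barcodes c3, c4 and c5 had 0.401%, 0.397% and 0.394% of B cell reads and 0.214%, 0.0905% and 0.0357% of Ccr2lo reads.

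Under 0.01% in all 4 macrophage populations, as in the other blood cells, were 6 members. Of these, c28 and c30 were under 0.001% in each macrophage population. Barcode c28 held 0.144% of B cell reads and between 2.62e-05% and 4.74e-05% of the reads of each macrophage population, with 0.00183% of T cell reads as its highest value elsewhere in the mouse. Barcode c30, with 0.137% of B cell reads, held at most 3.94e-05% of any other population. The other 4 were a25 and a27, which reached 0.00642% and 0.00727% in M2 macrophages but under 0.0001% in the heart, and b23 and b25. Barcode b23 had 0.131% of B cell reads and 0.00561%, 0.00600% and 0.00686% in Ccr2lo, M2 and M1 macrophages, and b25 had 0.00409% in Ccr2hi and 0.00274% in M2 macrophages.

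Across members of a mouse, as across all barcodes at 0.1% or more in B cells, rank correlations were higher among Ccr2hi, Ccr2lo and M2 macrophages than with B cells. Renal M1 macrophages were not included. Spearman's rho between Ccr2hi and Ccr2lo shares was 0.812, 0.882 and 0.865 over 29, 27 and 36 members in mice 1, 2 and 3, and between Ccr2lo and M2 shares 0.698, 0.741 and 0.754. Between B cell and Ccr2lo shares it was 0.169, 0.377 and 0.373, between B cell and Ccr2hi shares 0.208, 0.472 and 0.497, and between B cell and M2 shares 0.00690, 0.198 and 0.309. These are descriptions over barcodes that share the same libraries, and the narrow range of B cell shares within the rule limits the latter values. Over all barcodes at 0.1% or more in B cells, the values were higher, with 0.926, 0.961 and 0.942 between Ccr2hi and Ccr2lo, 0.845, 0.915 and 0.865 between Ccr2lo and M2, and 0.489, 0.524 and 0.471 between B cells and Ccr2lo macrophages. The ratio of the Ccr2lo to the B cell share ran from 0.000220 to 5.07 over the 92 members.

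The other 308 barcodes at 0.1% or more in B cells, all of which reached 0.01% in T cells, monocytes or neutrophils, give the setting. They were larger in B cells, with medians of 0.286%, 0.441% and 0.355%. Of them 95.8%, 97.7% and 97.4% were present in Ccr2hi, Ccr2lo and M2 macrophages and 53.9% in M1 macrophages. Per B cell read, they gave 0.526 ± 0.0859 as much in Ccr2hi, 0.447 ± 0.0613 in Ccr2lo, 0.479 ± 0.0654 in M2 and 1.05 ± 0.0713 in M1 macrophages (ratio of summed shares, SD, n = 3). For the members these ratios were 0.434 ± 0.103, 0.492 ± 0.101, 0.316 ± 0.0182 and 0.0122 ± 0.00202. Within each mouse the members had the lower ratio in M1 and M2 macrophages and also in Ccr2hi macrophages, at 0.319 against 0.433, 0.467 against 0.603 and 0.517 against 0.541. In Ccr2lo macrophages the direction of this summed ratio differed between mice, with 0.376 against 0.389, 0.539 against 0.511 and 0.560 against 0.443. The median ratio over single barcodes was lower for the members there in each mouse, at 0.261 against 0.504, 0.214 against 0.437 and 0.415 against 0.438. The differences were not tested, since the members were chosen with earlier results in view.

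Presence was also compared by size in B cells, with no test. Among members between 0.1% and 0.2% of B cell reads, 82.3%, 83.9% and 85.5% of 62 were present in Ccr2hi, Ccr2lo and M2 macrophages, against 93.5%, 95.7% and 94.6% of the 93 others of that size. Between 0.2% and 0.6% the members reached 96.7%, 96.7% and 93.3% of 30, and the 117 others 94.0%, 97.4% and 97.4%. In M1 macrophages the 2 sets stayed apart at both sizes, with 8.06% against 47.3% and 10.0% against 40.2%.

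B cell barcodes were also divided by the other blood cells in which they occurred. Barcodes at 0.01% or more in T cells but under it in monocytes and neutrophils numbered 11, and 1 of them was present in M1 macrophages. Of 123 found in B and myeloid cells without T cells 27.6% were, and of 174 found in B, T and myeloid cells 75.3%. Per B cell read the M2 ratio of the members, 0.306, 0.337 and 0.305 in the 3 mice, overlapped that of barcodes in B and myeloid cells without T cells, which was 0.326, 0.219 and 0.315. It lay below that of barcodes found in B, T and myeloid cells, which was 0.483, 0.621 and 0.456. In the M1 ratio the members, at 0.0110, 0.0110 and 0.0145, were below the B and myeloid class, at 0.116, 0.150 and 0.0736. In Ccr2lo macrophages the 4 classes ranged only from 81.8% for the 11 to 100% for the 174, with the members at 88.0%. The mirror set, at 0.1% or more in T cells and under 0.01% in B cells, monocytes and neutrophils, numbered 1, 4 and 1 barcodes, too few to set beside the 29, 27 and 36.

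The limits of the rule cut through a continuum. The smallest members in B cells were a29 (0.10005%), b27 (0.102%) and c36 (0.103%), and the largest barcodes left out on that side held 0.0997%, 0.0966% and 0.0997%. The members nearest to the limit in other blood were a1 with 0.00983% of neutrophil reads, b21 with 0.00956% and c22 with 0.00952% of monocyte reads, and the nearest left out had 0.0101%, 0.0112% and 0.01002%. The nearest one left out in mouse 3 held 0.353% of B cell, 0.406% of Ccr2hi and 0.570% of Ccr2lo reads.

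Some members were not private to a mouse. In samples of another mouse 17 of 92 (18.5%) reached 0.01%, against a background of 22.2% of the 400 barcodes. Of the 17, 6 reached 0.1% there, all of them members of mouse 3, and for 0.1% no background over the 400 is given. Without these 17 the number of members was 25 per mouse on average, and presence was 85.5% (Ccr2hi), 86.5% (Ccr2lo), 85.1% (M2) and 8.26% (M1), each within the spread between mice of the value with them.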

How the data were processed

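Barcodes were amplified from genomic DNA in 18 PCR cycles and 9 to 11 further cycles, per the labels' protocols. The deposited values are raw read counts per distinct sequence of 52 bases, 1 file per sample; details of read processing by the authors are not given in the sources used here. Shares are counts over the file total (Python 3.11.15, numpy 2.4.6, pandas 2.3.3, scipy 1.17.1).

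Samples were grouped by their titles. Same-numbered samples come from the same mouse and shared barcodes (mean overlap, the sum of the smaller shares, 0.410 within and 0.0142 between numbers), so all comparisons were made within a mouse. The smallest chi-square over degrees of freedom between 2 samples was 139, so none was a copy. Each member was chosen in 1 mouse and has no replicate, so no count model was fitted and no p-value is given. The number of mice, 3, limits every mean ± SD. Folds used a floor of 3 reads. The rule and the lists were chosen with earlier results of these data known. Named barcodes were, per mouse, the 5 largest members in B cells, those highest over all macrophages and in M1 macrophages, the largest one under 0.01% in all macrophages, and those at the limits; any other was named after its values were seen. On simulated counts of mouse 1 the selection recovered 30 of 30 planted members. This checked the computation only, and not how the rule treats real barcodes close to its limits. Alternatives were other limits, merging of sequences at 1 mismatch, thinning, the alternating pattern only, a minimum of 10 reads, removal of barcodes 10 times as abundant in B cells of another mouse (which removed no member) and leaving out each mouse.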

Additional observations from a re-analysis of the deposited data

Results flagged for a closer look

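Of the 17 members at 0.01% or more in a sample of another mouse, 7 were members in mouse 1, 2 in mouse 2 and 8 in mouse 3. The 6 at 0.1% or more were all members of mouse 3, and no background over the 400 barcodes is given at that level. Barcode c33, with 0.118% of the B cell reads of mouse 3, held 1.62% of T cell reads in mouse 2 and was at 0.01% or more in all 8 populations there. Barcode c20 held 0.820% of B cell reads in mouse 2 against 0.186% in mouse 3, and c35 held 0.566% of M1 macrophage and 0.492% of neutrophil reads in mouse 2. In mouse 1, c23 held 0.320% and c22 0.136% of B cell reads, and c10 held 0.151% of monocyte reads. Barcode c22 was also at 0.01% or more in 4 populations of mouse 2. Each of these 6 reached 0.01% in T cells, monocytes or neutrophils of another mouse, unlike in mouse 3, where the rule kept it lower. The source of the shared sequences was not tested.

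The members and the other 308 B cell barcodes differed in opposite directions in each mouse in 2 of 4 contrasts between subsets, which was not tested. In the other 2 contrasts, renal M2 against Ccr2hi and against Ccr2lo macrophages, they did not do so in every mouse. From Ccr2hi to Ccr2lo macrophages the summed share of the members was higher by 0.273, 0.404 and 0.362 percentage points, while that of the others differed by -3.65, -7.95 and -7.94 points. The mean gap between the sets was 6.86 points. From renal M2 to renal M1 macrophages the members differed by -1.40, -1.85 and -2.41 points and the others by 51.5, 46.3 and 43.6 points, a mean gap of -49.0 points. Shares of a sample add up to a fixed total, so the directions of the 2 sets are not independent. The renal contrast is also linked to the rule. Of the 174 B cell barcodes present in M1 macrophages, 165 were at 0.01% or more in monocytes or neutrophils, and the rule kept these out of the members. Most of the 400 barcodes at 0.1% or more in B cells reached that level too, namely 123 under 0.01% in T cells and another 174 at or above it.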

How the results depend on the processing

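Of 148 values under 16 other settings, 103 moved by less than 1 SD between mice (the number of members by less than 1.5 times) and 45 by more. The 103 overstate the stability. Leaving out 1 of 3 mice cannot move a mean by 1 SD, and the setting that removed no member could change nothing. Limits of the rule moved the number and the sums. Per mouse there were 16 members with a limit of 0.005% in other blood, 55.3 with 0.02%, 67.3 with 0.05% in B cells, 10 with 0.2% in B cells and 7 with 0.001% in other blood (added after the data were seen). In the same order of settings they held 2.94%, 13.9%, 8.75%, 3.25% and 1.07% of B cell reads, 0.986%, 6.29%, 5.06%, 1.39% and 0.440% of Ccr2hi, 1.29%, 7.02%, 5.93%, 1.44% and 0.680% of Ccr2lo, and 0.922%, 4.60%, 4.07%, 0.733% and 0.365% of M2 reads. The M1 sums that moved were 0.188% (0.02%), 0.159% (0.05% in B cells), 0.0358% (0.2% in B cells) and 0.0160% (0.001%).

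Presence moved less when the limits of the rule changed, but strongly when the limit that defines presence changed. In Ccr2hi presence was 90.1% with the 0.02% limit, 80.6% with 0.05% and 95.8% with 0.2% in B cells. In Ccr2lo it was 91.3%, 84.0% and 95.8%. In M2 it was 90.0%, 81.8% and 91.7%, and 79.6% with the 0.001% limit in other blood. These M2 values count as within 1 SD because the SD between mice was larger there, at 8.58 points. In M1 macrophages it was 13.0% with the 0.02% limit and 13.8% over the alternating pattern alone. Counting presence from 0.001% gave 93.7% in Ccr2hi, 94.6% in Ccr2lo, 98.1% in M2 and 24.9% in M1 macrophages, and from 0.1% gave 26.6%, 33.5%, 20.2% and 0%. Merging, thinning to 6808221 reads and the 10-read minimum moved no value by 1 SD.

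Leaving out a mouse gave 28 to 32.5 members holding 5.19% to 6.98% of B cell reads. Presence was 86.2% to 87.5% in Ccr2hi, 85.7% to 88.9% in Ccr2lo, 83.7% to 92.0% in M2 and 7.02% to 10.7% in M1 macrophages. Summed shares were 2.08% to 3.47%, 2.41% to 3.85%, 1.68% to 2.22% and 0.0572% to 0.0914%. No paired analysis was possible because the results come from no test, as no p is given for a sum or count over members; differences are given within each mouse instead.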
